A study of Mus musculus with 6 samples.

Results

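Transcript levels of 38 listed genes of the RET-RAS-MAPK pathway and its immediate early and feedback output were examined in RET mouse melanoma cells, a cultured line labelled as strain C57BL\6. The members were taken by symbol, with 1 array row per gene, and 36 of the 38 were measured among 22180 named genes. Hras and Mapk3 were not analysed here. The measured members were 7 genes for the receptor, its co-receptor, RAS and kinases, 14 immediate early or fast-response genes, 7 dual-specificity phosphatases (Dusp genes), 5 Sprouty and Spred genes and 3 factors of the Etv1, Etv4 and Etv5 family. Of the cultures, 3 carried a short hairpin RNA against Angpt2 (Angpt2 shRNA-1, called silenced below) and 3 carried a non-targeting hairpin, in titles that also bear the word GFP. All were transduced cells of 1 line, seeded in equal numbers, grown for 24 h in medium with 10% FCS and measured on 1 Affymetrix Mouse Gene 2.0 ST array each. With 1 hairpin against Angpt2 and no rescue, loss of Angpt2 and other effects of this hairpin cannot be told apart.

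RET is a receptor tyrosine kinase that signals with a GFRA co-receptor when a ligand of the GDNF family binds, and its signal passes through RAS, RAF, MEK and ERK. ERK activity switches on immediate early genes within minutes and then a slower set of genes, among them Dusp6, Spry4, Spred2 and Etv5, whose products include inhibitors of the same cascade, so their transcripts are widely used as a readout of ERK output in melanoma. Melanoma lines named RET are generally known from mice with a RET transgene under a metallothionein promoter. The labels do not state the origin of these cells, and whether the mouse Ret row reads such a transgene was not tested.

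Angpt2 itself, the target of the hairpin, had intensities of 100.2, 122 and 122 in silenced cultures 1, 2 and 3, against 195, 372 and 326 in control cultures 1, 2 and 3. The groups did not overlap, and the log2 fold change was -1.33 (SE 0.21), with a limma adjusted p = 1.00 over all genes and 0.0460 in the fit blocked on replicate number. Melanocyte markers were bright on every array, with Mitf, Sox10, Pmel, Tyr, Tyrp1, Dct and Mlana between 1387 and 9651. Their summed intensity was 35120 to 37626 in silenced and 35852 to 38964 in control cultures. Of these 7, 6 had a negative log2 fold change and 1 a positive one. Mitf did not overlap between groups, at 2414 to 2537 in silenced and 2681 to 2970 in control cultures. Its log2 fold change was -0.20 (SE 0.08, limma unadjusted p = 0.0394), which did not pass after adjustment. The summed intensity of 6 endothelial markers was 434 to 465 in silenced and 409 to 458 in control cultures. The sum of 5 immune genes was 396 to 404 in silenced and 374 to 444 in control cultures, that of 5 fibroblast genes 392 to 417 in silenced and 397 to 435 in control cultures, and that of 4 keratinocyte genes 253 to 283 in silenced and 266 to 295 in control cultures. No marker is listed at 0. The arrays correlated within groups at 0.983 to 0.993 over all genes. The table has no detection calls, so a member whose mean lies below the median of all genes, an intensity of 87.7, cannot be told from background, and this applied to Ret, Gfra1, Egr1, Egr2, Egr3 and Etv4.

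The sequences before the start sites of 7 members are shown, 5 for their differences between control arrays and 2 for the motif they hold. Dusp6, Etv5 and Spred2 are ERK-responsive genes that were lower on control replicate 1 than on control replicate 2. Jun and Dusp8 were highest on 1 control array. Dusp5 and Zfp36 hold the binding site of serum response factor, the CArG box, and ranged 1.13-fold and 1.17-fold over the 6 arrays. Egr2, a dim row, also holds a CArG box, ranged 1.34-fold and is not shown. Each sequence shown is the stretch of 150 bases that ends just before the RefSeq start site (GRCm38.p6), written 5′ to 3′ along the gene. Capitals mark matches to the letters searched on both strands, which were TGACGTCA (the cAMP response element, CRE), TGANTCA (AP-1), the CArG box (CC, then 6 bases of A or T, then GG), TGACATCA (the AP-1-like element known from the JUN promoter), CCGGAA (ETS core) and GCGNGGGCG (EGR).
Dusp6: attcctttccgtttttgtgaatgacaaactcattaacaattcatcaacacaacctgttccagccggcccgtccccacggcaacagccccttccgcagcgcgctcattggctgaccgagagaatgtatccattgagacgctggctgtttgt
Etv5: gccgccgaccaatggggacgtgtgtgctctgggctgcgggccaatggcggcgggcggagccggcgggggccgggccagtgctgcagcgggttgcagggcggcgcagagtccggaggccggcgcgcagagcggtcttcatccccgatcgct
Spred2: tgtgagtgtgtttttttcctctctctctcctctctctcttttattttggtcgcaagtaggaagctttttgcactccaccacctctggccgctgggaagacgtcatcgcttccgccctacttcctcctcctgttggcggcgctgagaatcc
Jun: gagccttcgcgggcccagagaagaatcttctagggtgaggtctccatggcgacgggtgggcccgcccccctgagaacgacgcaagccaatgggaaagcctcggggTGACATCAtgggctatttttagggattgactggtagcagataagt
Dusp8: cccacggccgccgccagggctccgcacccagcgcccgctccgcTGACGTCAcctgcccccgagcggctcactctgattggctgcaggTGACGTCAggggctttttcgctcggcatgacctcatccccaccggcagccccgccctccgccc
Dusp5: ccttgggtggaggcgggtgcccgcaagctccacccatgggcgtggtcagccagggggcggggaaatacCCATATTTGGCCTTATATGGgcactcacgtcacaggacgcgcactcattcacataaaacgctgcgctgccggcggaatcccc
Zfp36: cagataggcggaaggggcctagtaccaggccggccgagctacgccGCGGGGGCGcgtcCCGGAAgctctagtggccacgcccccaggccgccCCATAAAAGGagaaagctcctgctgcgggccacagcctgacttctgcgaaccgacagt

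These stretches lie at chr10:99263081-99263230, plus strand (Dusp6), chr16:22439571-22439720, minus strand (Etv5, the more upstream of its 2 listed starts), chr11:19924292-19924441, plus strand (Spred2), chr4:95052223-95052372, minus strand (Jun), chr7:142095285-142095434, minus strand (Dusp8), chr19:53528995-53529144, plus strand (Dusp5) and chr7:28379229-28379378, minus strand (Zfp36). In the Zfp36 stretch the capitals are, in order, an EGR match, an ETS core and a CArG box. Dusp5 holds a pair of adjoining CArG boxes, CCATATTTGG and CCTTATATGG, Dusp8 a pair of CREs, and Jun a single TGACATCA at 45 bases before its start. The stretches of Dusp6, Etv5 and Spred2 hold no match. RefSeq windows were matched for 27 of the 36 members by symbol. Within 250 bases before a start, the CArG box was found in 3 of these 27 genes (Egr2, Dusp5 and Zfp36, 11.1%) against 1.62% of 27025 genes, and the CRE in 3 (Braf, Dusp1 and Dusp8, 11.1%) against 1.77%. The EGR letters were in 4 members (14.8% against 5.33%), the ETS core in 5 (18.5% against 13.6%), TGACATCA in Jun and Dusp10 (7.41% against 3.41%) and TGANTCA in 0 (against 7.82%). Matches of these motifs may overlap one another, and a match is a description of the letters only.

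No member differed between silenced and control cultures by the test over all genes. With limma, 0 of 36 members passed an adjusted p of 0.05, against 0% of all genes, and 0 passed an unadjusted p of 0.05, against 3.76% of all genes (835 of 22180). Log2 fold changes were positive for 13 members and negative for 23, with a median of -0.03, beside a median of -0.01 over all genes, of which 45.2% were positive. All 36 lay between -0.25 (Dusp4) and 0.29 (Etv5). The 95% interval lay within a 1.5-fold change to each side for 32 of 36 members, against 95.9% of all genes. For the other 4 members the interval was -0.69 to 0.82 for Ier3, -0.40 to 0.99 for Etv5, -0.36 to 0.61 for Dusp6 and -0.61 to 0.10 for Dusp4. These intervals leave room for changes of up to 1.99-fold in Etv5 and 1.77-fold in Ier3. The 32 members include Ret, Gfra1, Egr1, Egr2, Egr3 and Etv4, which cannot be told from background. For these dim rows a narrow interval does not bound a change in expression. In bulk RNA, a change in the share of responding cells and a change per cell cannot be told apart.

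**Figure D1:**
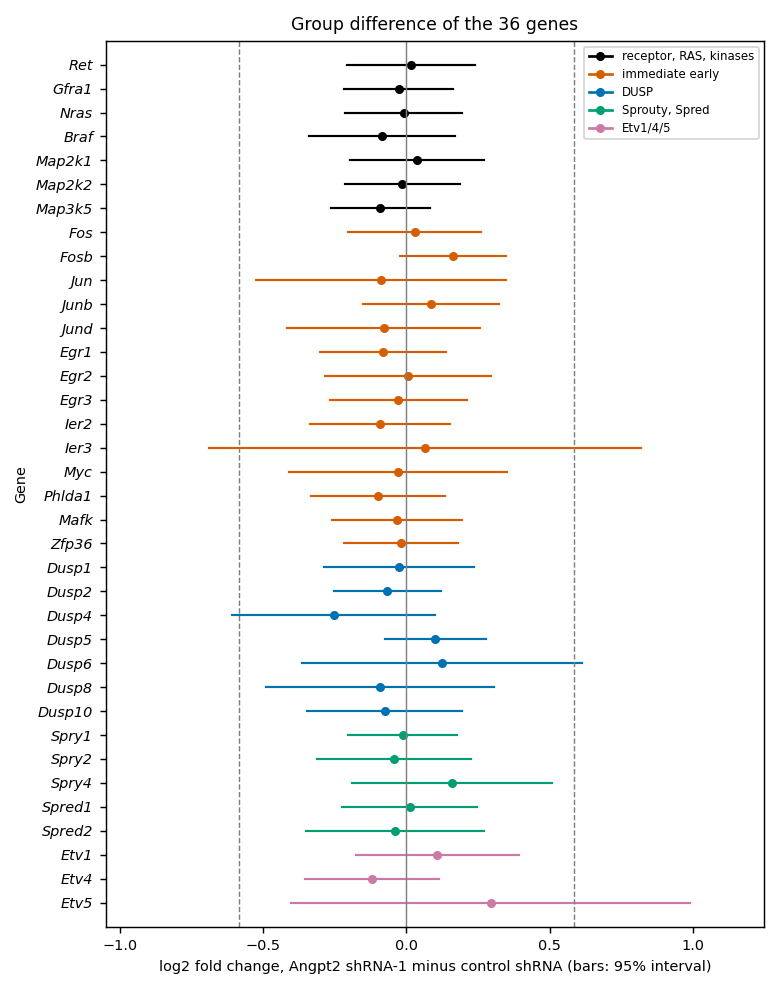
Log2 fold change of silenced over control cultures (x axis, log2 units) for the 36 members (y axis), grouped by role, with points for the estimate and bars for the 95% interval from limma (3 arrays per group), the dashed lines marking a 1.5-fold change. All estimates lie between -0.25 and 0.29 and every interval includes 0, with the widest for Ier3 and Etv5.

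As a class, the receptor and kinase genes had the lowest median spread between cultures of one group, although single genes of other classes, such as Dusp5 and Fosb, were steadier than most of them. Ret was at intensities of 86.4, 84.7 and 74.2 in silenced cultures 1, 2 and 3 and 88.3, 75.2 and 79.2 in control cultures 1, 2 and 3. Gfra1, its GDNF co-receptor, was at 83.2, 83.1 and 80.9 in silenced and 82.2, 90.3 and 79.9 in control cultures. Both rows are in the range that cannot be told from background, and a dimmer second row of Gfra1 gave a log2 fold change of 0.04. Nras, a RAS GTPase often mutated in human melanoma, was at 846, 772 and 855 in silenced and 796, 899.6 and 795 in control cultures (log2 fold change -0.01, SE 0.09). Braf, the RAF kinase above MEK, was at 907, 915 and 1156 in silenced and 1066, 976 and 1100.4 in control cultures (-0.08, SE 0.11). Its replicate 3 array was the highest in both groups.

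Map2k1 (MEK1) was at 742, 617 and 761 in silenced and 659, 667 and 732 in control cultures, a log2 fold change of 0.04 (SE 0.10). Map2k2 (MEK2) was at 1317, 1358 and 1158 in silenced and 1306, 1264 and 1292 in control cultures, a log2 fold change of -0.01 (SE 0.09). Both groups overlapped for each MEK gene. Map3k5, which encodes ASK1, a stress kinase that feeds the JNK and p38 cascades, was at 270.4, 262 and 263 in silenced and 287, 276 and 284 in control cultures. Its arrays did not overlap, yet the difference was small, with a log2 fold change of -0.09 (SE 0.08, 95% interval -0.26 to 0.08, limma unadjusted p = 0.269). Map3k5 also varied least of the members between cultures of one group. Over the 7 genes the highest array exceeded the lowest by 1.10-fold to 1.27-fold.

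Among the AP-1 genes, Jun varied most. It was at 747, 655 and 746 in silenced cultures 1, 2 and 3 and at 1028, 774 and 551 in control cultures 1, 2 and 3, so that the control cultures held both the highest and the lowest value. The log2 fold change of -0.09 (SE 0.19) went to 0.13 without control replicate 1 and to -0.32 without control replicate 3. Jund, another gene of the family, was at 487, 395 and 457 in silenced and 595, 425 and 410.1 in control cultures (-0.08, SE 0.15). Control replicate 1 was again the highest array, and without it the value was 0.09. A dimmer second row of Jund ran the other way, at 0.04, and the mean of both rows gave -0.02. Junb was at 197, 184 and 191 in silenced and 208, 170.0 and 163 in control cultures (0.09, SE 0.11). In all 3 Jun family genes the replicate 1 array was the highest of its group in both groups.

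Fos, the partner of Jun in AP-1, was at 112, 110.0 and 126 in silenced and 101, 116 and 124 in control cultures (log2 fold change 0.03, SE 0.10). Its lowest array, control replicate 1, was the one with the most Jun. Fosb was at 90.3, 97.3 and 93.8 in silenced and 87.6, 80.0 and 83.8 in control cultures and did not overlap between groups (0.16, SE 0.08, limma unadjusted p = 0.0790, adjusted p = 1.00, exact permutation p = 0.1, the smallest that 3 against 3 arrays can give). The mean of Fosb, 88.8, was just above the median of all genes, 87.7, and all its control values were below that median. Its difference thus lay near background. Across the members, 3 did not overlap between groups (against 9.01% of all genes). Fosb and Dusp5 were the 2 higher in silenced cultures (against 3.53% of all genes) and Map3k5 the 1 lower (against 5.48%). These counts are near the background.

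The zinc finger factors Egr1, Egr2 and Egr3, classical first targets of ERK and serum response factor, stayed at low signals on every array. Egr1 was at 76.3, 91.3 and 76.8 in silenced and 90.3, 85.5 and 82.1 in control cultures (-0.08, SE 0.10). Egr2 ranged from 72.5 to 88.5 in silenced and 72.4 to 96.8 in control cultures, and Egr3 from 73.0 to 93.3 and 81.0 to 89.4. The differences of Egr2 and Egr3 were 0.01 (SE 0.13) and -0.03 (SE 0.11). Ier2, a nuclear immediate early gene, was at 159.6, 147 and 128 in silenced and 167, 156 and 140.3 in control cultures (-0.09, SE 0.11), with the same order of replicates 1, 2 and 3 in both groups. Zfp36, which encodes a protein that destabilises mRNAs with AU-rich elements and has a CArG box in the stretch above, was nearly level, at 119.9, 119 and 119.7 in silenced and 111, 125 and 129 in control cultures (-0.02, SE 0.09).

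Ier3, a stress-inducible gene that acts on survival and ERK dephosphorylation, had the widest within-group spread of the members. It reached 1649 on silenced replicate 3 and 1414 on control replicate 3, while the other cultures were at 755 and 742 in silenced and 835 and 684 in control cells. Both replicate 3 cultures stood apart, and within replicate numbers 1, 2 and 3 the log2 difference between silenced and control was -0.15, 0.12 and 0.22. The log2 fold change was therefore small, 0.06 with an SE of 0.33. Leaving out silenced replicate 3 gave -0.31 and leaving out control replicate 3 gave 0.37.

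Myc, the growth-promoting factor stabilised by ERK, was at 852, 1080.3 and 882 in silenced and 724, 1146 and 1039 in control cultures (-0.03, SE 0.17). The replicate 2 culture was highest and the replicate 1 culture lowest in both groups. Without control replicate 1 the value was -0.23. Phlda1, a pleckstrin-homology protein used in signatures of MEK activity, was at 598, 518 and 485 in silenced and 619.5, 548 and 546 in control cultures (-0.10, SE 0.10), highest in replicate 1 of both groups. Mafk, a small Maf factor, was at 228, 233 and 225 in silenced and 219, 269 and 219 in control cultures (-0.03, SE 0.10).

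Of the phosphatases, Dusp6, the cytoplasmic phosphatase specific for ERK, was at 1213, 1189 and 829.9 in silenced cultures 1, 2 and 3 and at 857, 1371 and 787 in control cultures 1, 2 and 3. Low values, at most 857, were found in both replicate 3 cultures and in control replicate 1. The log2 fold change was 0.12 (SE 0.22), from -0.03 without control replicate 3 to 0.37 without control replicate 2. A dim second row of Dusp6, between 54.6 and 74.0, was in the range that cannot be told from background. Its lowest values were on the replicate 3 arrays, while control replicate 1 (68.0) was level with silenced replicate 1 (67.2). Dusp4, a nuclear ERK phosphatase, was at 928, 928 and 824 in silenced and 1209.8, 1235 and 807 in control cultures. Controls 1 and 2 lay above all silenced cultures and control 3 below them.

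The log2 fold change of Dusp4 was -0.25 (SE 0.16, limma unadjusted p = 0.140, exact permutation p = 0.4), the largest negative value among the members. Within replicate numbers 1, 2 and 3 the difference was -0.38, -0.41 and 0.03, and without control replicate 3 it was -0.45 (adjusted p = 0.796). Blocking on replicate number gave an adjusted p of 0.997. Dusp4 thus did not pass in any of these fits.

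Dusp5, a nuclear ERK phosphatase with the paired CArG boxes shown above, was at 106, 109 and 112 in silenced and 99.3, 103 and 103 in control cultures. Every silenced array lay above every control array, by 0.10, 0.08 and 0.12 on the log2 scale within replicates 1, 2 and 3, a difference that did not pass (limma unadjusted p = 0.229, adjusted p = 1.00). Dusp8, a phosphatase of JNK and p38 with a pair of CREs before its start, was at 147, 139.7 and 179 in silenced and 221, 148 and 137 in control cultures (-0.09, SE 0.18). Control replicate 1 was the highest array, and without it the value was 0.12. Dusp10, another JNK and p38 phosphatase, was likewise highest on control replicate 1, at 171 against 125 to 145 on the other arrays. Dusp1, the nuclear phosphatase of the immediate early class, was at 289, 313 and 289 in silenced and 317, 341 and 255 in control cultures (-0.03, SE 0.12). Dusp2 varied from 195 to 206 in silenced and 198 to 220.5 in control cultures (-0.07, SE 0.08).

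Sprouty and Spred proteins restrain RAS and RAF activation. Spry4 was at 133, 142 and 129 in silenced cultures 1, 2 and 3 and at 106, 159 and 104 in control cultures 1, 2 and 3, so that the silenced values lay inside the control range. Its log2 fold change was 0.16 (SE 0.15), from 0.05 without control replicate 3 to 0.36 without control replicate 2. Spred2 was at 488, 475 and 448 in silenced and 390.1, 584 and 496 in control cultures (-0.04, SE 0.14), and Spred1 at 501, 521 and 498 in silenced and 441, 568 and 507 in control cultures (0.01, SE 0.10). Both were lowest on control replicate 1 and highest on control replicate 2. Spry1 was level, between 159 and 177 in silenced and 162 and 174 in control cultures, and Spry2 ranged from 226 to 278 and 229 to 287.

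The Etv factors of the PEA3 group are known as ERK-responsive genes in many cell types. Etv5 had the largest fold change and the widest range of the members, 2.55-fold between its lowest and highest array. It was at 161, 206 and 121 in silenced cultures 1, 2 and 3 and at 82.9, 212 and 124 in control cultures 1, 2 and 3. Replicates 2 and 3 of both groups nearly coincided, and the log2 difference within replicates 1, 2 and 3 was 0.95, -0.04 and -0.03. The log2 fold change of 0.29 (SE 0.31, limma unadjusted p = 0.364, adjusted p = 1.00) therefore rested on control replicate 1 and was -0.03 without it. On that array Etv5, at 82.9, was below the median of all genes, 87.7, and so near background. Averaged with a dimmer second row of the gene, Etv5 was at 0.14.

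Etv1 was at 158, 136 and 145 in silenced and 116, 161 and 134 in control cultures (0.11, SE 0.13), again lowest on control replicate 1, and -0.01 without that array. Etv4, at 84.7, 72.4 and 91.5 in silenced and 86.3, 88.7 and 94.4 in control cultures (-0.12, SE 0.10), was in the range that cannot be told from background.

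**Figure D2:**
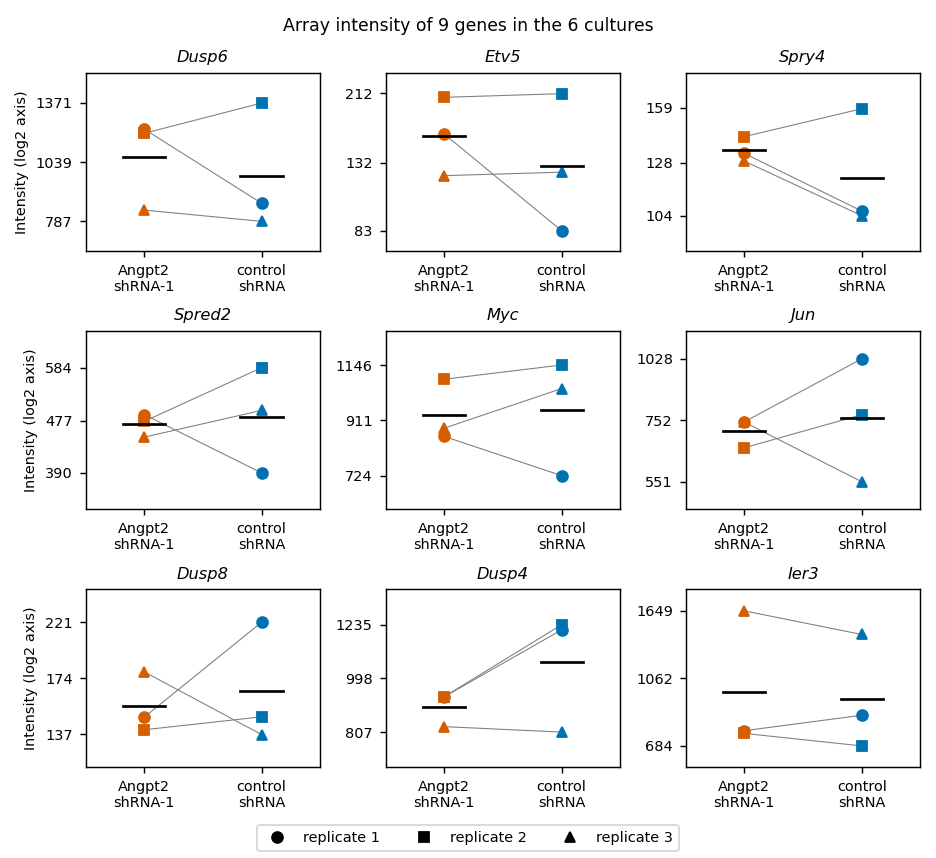
Array intensity (y axis, log2 scale) of 9 members in silenced cultures (left, orange) and control cultures (right, blue), with a symbol for each replicate number, grey lines joining equal numbers and black bars for the geometric mean of 3 arrays. Etv5, Spry4, Spred2 and Myc are low on control replicate 1, Jun and Dusp8 are highest there, and both replicate 3 cultures stand apart in Ier3. Spry4 is about as low on control replicate 3.

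The feedback classes had higher median spread between cultures of one group than the upstream genes, a difference that was not tested. As a measure of this spread, the standard deviation (SD) of log2 intensity within groups, pooled over both, was placed among all 22180 genes. The median percentile was 28.9 for the 7 upstream genes, 59.6 for the 14 immediate early genes, 76.3 for the Dusp genes, 75.4 for the Sprouty and Spred genes and 80.9 for the Etv genes. Above the 90th percentile were 9 of 36 members, against 10% of all genes by construction. They were Ier3 (99.7), Etv5 (99.6), Dusp6 (98.4), Jun (97.3), Dusp8 (96.1), Myc (95.3), Dusp4 (93.3), Spry4 (92.7) and Jund (91.4). When only genes above the median level were compared, a setting added after seeing the data, 6 of the 30 bright members were above the 90th percentile, again against 10%. The lowest percentiles were those of Map3k5 (0.573) and Dusp5 (1.89). The members share the same 6 arrays and are not independent of each other.

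**Figure D3:**
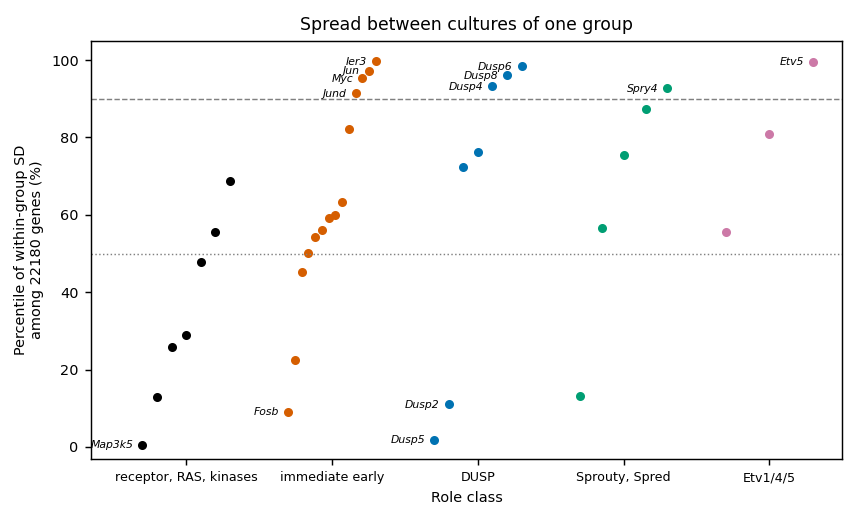
Percentile of the pooled within-group SD of log2 intensity among 22180 genes (y axis, percent) for each member, by role class (x axis), with a dashed line at the 90th and a dotted line at the 50th percentile. The 9 labelled members above the dashed line are immediate early, Dusp, Sprouty and Etv genes, and none is an upstream gene.

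Class medians differed between single arrays, although the members of a class did not all move together. On control replicate 1 the class median of each gene's log2 intensity, less its mean over the 6 arrays, was -0.20 for the Sprouty and Spred genes and -0.28 for the Etv genes, while it was 0.11 for the immediate early genes and 0.10 for the Dusp genes. Within classes that array held both low and high members. Dusp6 was at -0.25 and Dusp8 at 0.47, Myc at -0.38 and Jun at 0.48, and Etv5 at -0.79 and Etv4 at 0.005. On control replicate 2 the class median was 0.22 for the Sprouty and Spred genes and 0.20 for the Etv genes. The Dusp genes were lowest on control replicate 3, at -0.22. On the silenced arrays the medians of the classes outside the Etv genes lay between -0.08 and 0.05, and Etv genes reached 0.16 on silenced replicate 1. For the 7 upstream genes every array was within -0.06 and 0.03.

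**Figure D4:**
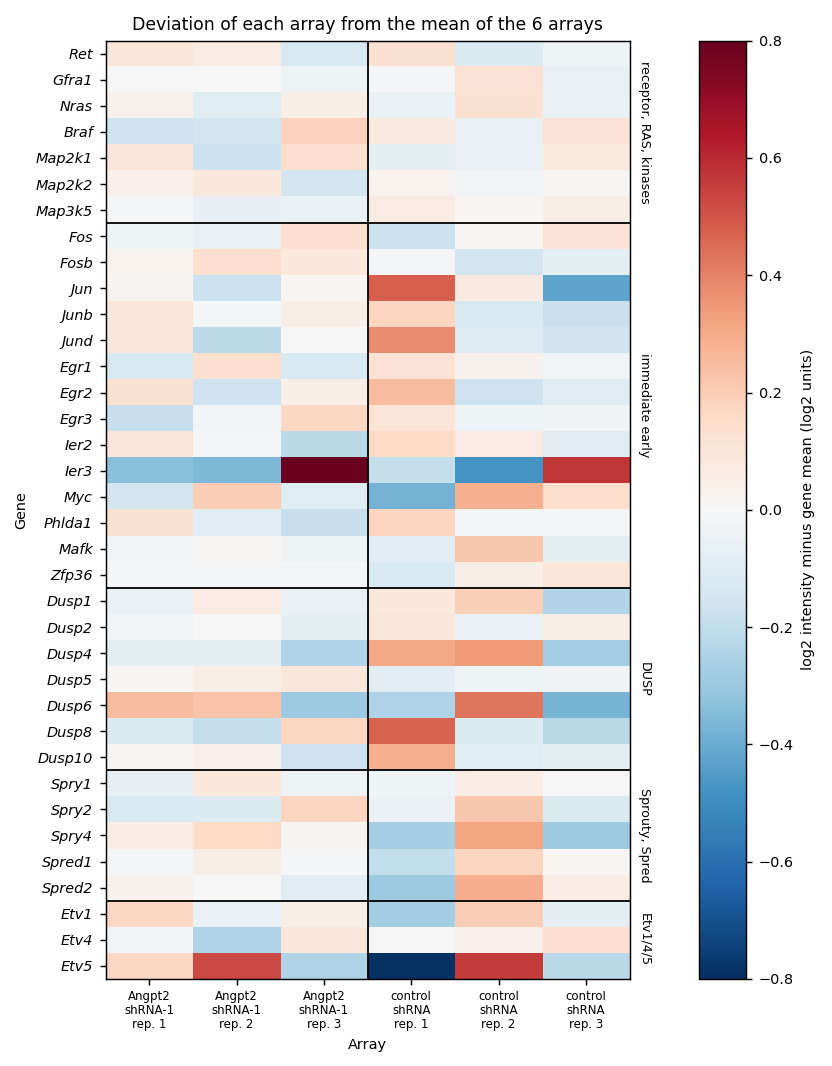
Deviation of log2 intensity from the mean of the 6 arrays (colour, log2 units) for the 36 members (rows, in role classes) on the silenced (left) and control (right) arrays. Control replicate 1 is low in Etv5, Myc, Spred2 and Spry4 and high in Jun, Dusp8 and Jund, and Ier3 is high on both replicate 3 arrays. Spry4 is about as low on control replicate 3.

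Co-variation over the 6 cultures was computed for 11 pairs of members, on log2 intensity. The pairs were chosen with earlier results of these data known, so their p-values are descriptive only. The permutations treated the 6 arrays as exchangeable and used neither group nor replicate number. Likeness between arrays of one group or one replicate number is thus not allowed for. Dusp6 and Spry4 had the closest relation (Pearson r = 0.87, exact permutation p = 0.0153, adjusted p = 0.168 over 11 pairs; Spearman rho = 0.89, exact permutation p = 0.0333, adjusted p = 0.367). Leaving out the 2 arrays farthest from the median of Dusp6, controls 2 and 3, r was 0.69, and with group means removed it was 0.88. Dusp6 and Etv5 followed with r = 0.84 (exact permutation p = 0.0528, adjusted p = 0.290; rho = 0.71, exact permutation p = 0.136, adjusted p = 0.467), and r stayed at 0.84 without the same 2 arrays. Without both replicate 2 arrays r fell to 0.67 for Dusp6 and Spry4 and to 0.63 for Dusp6 and Etv5. It was 0.91 and 0.98 without both replicate 1 arrays, and 0.98 and 0.95 without both replicate 3 arrays. None of the 11 pairs passed after adjustment.

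Other pairs were looser. Dusp6 and Dusp4 gave r = 0.46 over the 6 arrays (exact permutation p = 0.347, adjusted p = 0.438; rho = 0.77, exact permutation p = 0.103, adjusted p = 0.467). That r was 0.86 without control replicate 1 and -0.20 without the 2 arrays farthest from the median, so the relation rested on single arrays. Fos and Egr1 gave r = -0.63 (exact permutation p = 0.160, adjusted p = 0.438; rho = -0.60, exact permutation p = 0.242, adjusted p = 0.467), and -0.19 without control replicate 1 and silenced replicate 3. Fos and Junb gave r = -0.64 (exact permutation p = 0.174, adjusted p = 0.438; rho = -0.54, exact permutation p = 0.297, adjusted p = 0.467), and -0.84 without the same arrays. The r of Fos and Junb was -0.32 without control replicate 1 alone and -0.06 without both replicate 1 arrays. In the 6 remaining pairs, which set Egr1 against Ier2 and Dusp1, Dusp6 against Spry2, Etv4 and Egr1, and Myc against Phlda1, no exact permutation p of r was under 0.276. In that order r was 0.44, 0.52, 0.15, -0.52, 0.14 and -0.53.

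Arrays with the same replicate number tended to be high in the same members. For 22 of 36 members (61.1%) the array with the highest value carried the same number in both groups, against 37.8% of all genes. Of the 30 members above the median level it was 19 (63.3%), against 41.5% of all genes above that level. Replicate 1 was highest in both groups for 8 members, Ret, Jun, Junb, Jund, Egr2, Ier2, Map3k5 and Phlda1. Replicate 2 was highest for 8, Dusp1, Dusp4, Spry1, Spry4, Spred1, Etv5, Myc and Mafk. Replicate 3 was highest for the other 6, Braf, Map2k1, Fos, Ier3, Dusp5 and Etv4. For the lowest array the count was 13 of 36 members, near the share of all genes, 37.7%, so the lowest arrays showed no such tendency. Of the 9 members with the widest spread, 7 had the same number highest in both groups, against 43.7% of all genes above the 90th percentile of spread. No label ties a replicate number to a day or batch, and the part of a shared day or handling in this pattern was not tested.

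Of 95 further pathway genes in 8 lists, 86 were measured, and 0 passed the limma test over all genes. Of these 86, 6 had an unadjusted limma p under 0.05, against 3.76% of all genes. Their log2 fold changes had a median of -0.02, with 39 positive and 47 negative. The GDNF ligands and their co-receptors had a median of 0.02 over 8 genes, with intensities of 46.0 to 134. In that list Pspn, the ligand persephin, had the largest value (-0.15, SE 0.21). Adaptors and RAS regulators had a median of -0.03 over 13 genes, with Gab2, a docking protein that recruits SHP2, at 343, 346 and 377 in silenced and 481, 370.2 and 432 in control cultures (-0.26, SE 0.11, limma adjusted p = 1.00). Cascade kinases had a median of -0.02 over 7 genes, with Araf at -0.17 (SE 0.09) and lower on every silenced array than on any control array. The ERK-responsive factors had a median of -0.05 over 8 genes. Mrtfa, the actin-regulated partner of serum response factor, was at 394, 369 and 339 in silenced and 321, 328 and 298 in control cultures. Its arrays did not overlap between groups (0.22, SE 0.09, limma unadjusted p = 0.0399, adjusted p = 1.00).

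The 18 other immediate early genes had a median of -0.08, with 12 negative. Atf3, a stress-inducible factor, had the largest value, at 286, 211 and 337 in silenced and 699.8, 222 and 254 in control cultures (-0.32, SE 0.38). Control replicate 1 stood apart in Atf3 as it did in Jun and Dusp8. The 11 other feedback and output genes had a median of 0.03, with Spred3 at -0.18 (SE 0.12). Receptor kinases above RAS had a median of 0.06 over 9 genes, with Met, the hepatocyte growth factor receptor, at 2030.3, 1882 and 1866 in silenced and 2465, 2262 and 2034 in control cultures, not overlapping (-0.22, SE 0.10, limma unadjusted p = 0.0448, adjusted p = 1.00). The 12 JNK and p38 kinase genes had a median of 0.04, with Map3k6 at -0.19 (SE 0.11).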

How the data were processed

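Total RNA, 100 ng per sample, was amplified and labelled with biotin, per the labels. The deposited table holds linear intensities, 1 row per transcript cluster. How the authors normalized them, and the genome build, are not given in the sources used here. Arrays ran from 28.1 to 12624, with closely matched medians of 74.5 to 76.2. Rows with exactly 1 gene symbol and a value on all 6 arrays were kept, using the row with the highest mean per gene. The deposited intensities were converted to log2 without a pseudocount. Groups were compared with limma 3.58.1 (R 4.3.3; lmFit, eBayes, two-sided), with Benjamini-Hochberg adjustment over 22180 genes and a threshold of 0.05, checked on simulated data. Single-gene permutation tests enumerated all 20 splits of the arrays and correlation tests all 720 orders, two-sided.

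The members, gene lists and pairs were chosen with earlier results of these data known. By rule, named genes were the members, Angpt2, fixed markers, and of each other list the called members or the one with the largest absolute fold change. Ccnd1, Elk3 and Map2k6 fall outside this rule and were chosen after their values were seen, as were the genes that passed in single alternatives. Other pathway genes and 1 pair whose rows were not held were not analysed here. Both groups share replicate numbers. Deviations from group means correlated at 0.13, 0.21 and 0.14 between arrays with the same number. The main fits, their intervals, the single-gene permutation tests and the correlation tests did not use the numbers as pairs. A fit blocked on replicate number was run as an alternative, and its values are printed wherever a call differed. The 3 cultures per group limit the precision. Alternatives were the block, quantile normalization, median centring, a filter on dim genes, a pseudocount of 16, the mean of all rows of a gene, trend and robust options, and leaving out each array. Sequences are from RefSeq (GRCm38.p6).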

Additional observations from a re-analysis of the deposited data

How the results depend on the processing

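No member passed over all genes in any of the 13 alternatives, in which the lowest adjusted p of a member was 0.796 (Dusp4 without control shRNA replicate 3). At an unadjusted limma p under 0.05, 1 member was found with the replicate block (Dusp4, against 4.58% of all genes), 1 without control shRNA replicate 3 (Dusp4, against 5.75%) and 2 without control shRNA replicate 2 (Spry4 and Etv5, against 4.96%). With the replicate number as a block, Angpt2 (log2 fold change -1.33) had an adjusted p of 0.0460 and 2 genes passed, Angpt2 and Pld4; the block changed no other call reported here. With trend and robust options 1 gene passed, Pld4. Leaving out single arrays gave -1.61 (without control shRNA replicate 1, adjusted p = 0.0116) to -1.14 for Angpt2, and 0 to 2 genes passed. When 1 array was left out, the median log2 fold change ran from -0.039 to 0.0094 for all members, -0.13 to 0.032 for the Dusp genes, -0.077 to 0.096 for the Sprouty and Spred genes and -0.027 to 0.23 for the Etv genes, so each changed sign, while it stayed negative for the upstream and immediate early genes. The sign of the fold change changed for 24 of 36 members when 1 array was left out, and for 12 members it did not. The mean of all rows put Gfra1 at 0.0061. The ranges when 1 array was left out were -0.15 to 0.062 for Dusp1, -0.14 to 0.049 for Dusp10, -0.030 to 0.37 for Dusp6, -0.23 to 0.12 for Dusp8, -0.076 to 0.13 for Egr2, -0.12 to 0.058 for Egr3, -0.0065 to 0.23 for Etv1, -0.027 to 0.65 for Etv5, -0.051 to 0.093 for Fos, -0.064 to 0.025 for Gfra1, -0.31 to 0.37 for Ier3, -0.32 to 0.13 for Jun, -0.18 to 0.091 for Jund, -0.084 to 0.064 for Mafk, -0.018 to 0.13 for Map2k1, -0.059 to 0.055 for Map2k2, -0.23 to 0.10 for Myc, -0.039 to 0.049 for Nras, -0.036 to 0.084 for Ret, -0.083 to 0.10 for Spred1, -0.20 to 0.096 for Spred2, -0.060 to 0.018 for Spry1, -0.14 to 0.056 for Spry2 and -0.085 to 0.026 for Zfp36. The absence of detection calls limits what can be said of the dim members.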

Other observations

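Cyclin D1 (Ccnd1), a cell-cycle gene downstream of ERK, was singled out after its values were seen. Its intensity was 1583, 1714 and 1317 in silenced cultures 1, 2 and 3 and 1064, 1977 and 1279 in control cultures 1, 2 and 3, with its minimum on control replicate 1 and its maximum on control replicate 2, as in Spred1, Spred2, Myc and Etv5. The log2 fold change was 0.14 (SE 0.21, limma adjusted p = 1.00). Elk3, an ETS factor that partners serum response factor, was chosen in the same way and had 289, 259.8 and 281 in silenced and 192, 313 and 292 in control cultures (0.09, SE 0.17). Map2k6, a kinase of the p38 cascade and also chosen after its values were seen, had the widest range of the JNK and p38 genes, 2.43-fold, with 232, 211 and 286 in silenced and 139, 232 and 338 in control cultures.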
